A study of Mus musculus with 7 samples.

Results

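The Obox genes encode oocyte-specific homeobox proteins, transcription factors that bind DNA through a homeodomain and lie in a cluster on mouse chromosome 7. They were found in the deposited expression table by symbol: Obox1, Obox2, Obox3, Obox5 and Obox6, which are 5 of its 24319 rows. Another row, Obox7, belongs to the same family and is given beside them. All 5 genes were well above the level required for testing, an FPKM (fragments per kilobase of transcript, scaled to the mapped fragments of the library) of at least 1 in 2 or more libraries, so none was left out.

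As background, the fertilised or reconstructed mouse embryo starts with RNA stored in the oocyte and begins its own transcription around the 2-cell stage. Transcripts of Obox1, Obox2, Obox5 and Obox7 are stored in the oocyte and are called maternal here. Obox3 is transcribed from the embryo's own genome as it is switched on, and Obox6, a more divergent gene, is transcribed in the preimplantation embryo; both are called zygotic here. OBOX proteins are known to help RNA polymerase reach the first genes that the embryo transcribes.

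The embryos came from somatic cell nuclear transfer: cumulus cells were injected into oocytes whose own chromosomes had been removed. All carried the strain label B6D2F1 and a wild-type genotype, and every group received mRNA of Kdm4a, the gene of a histone demethylase that removes repressive methyl marks. FOC+K embryos (2 libraries, called fresh below) were built from fresh oocytes and CROC+K embryos (3 libraries, called vitrified) from oocytes that had been vitrified and warmed. CROC+K+M embryos (2 libraries, called melatonin) also came from vitrified and warmed oocytes and were treated with 10 µM melatonin, an indole hormone and antioxidant, where the series names a vehicle for the others. Each library came from a pool of 50 to 100 embryos. No library lacked the Kdm4a mRNA, so there is no group without it, and the Kdm4a row cannot separate injected from endogenous RNA. In such pools, fewer embryos that express a gene and less RNA per embryo cannot be told apart.

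The labels give the 2-cell stage for every library, and markers were read against that. Of 7 genes typical of this stage 5 had a mean FPKM of at least 1 in every group, while Tcstv1 and Tcstv3 are listed at 0 in all libraries. Their summed FPKM was uneven, at 401 and 172 (fresh), 142, 722 and 1032 (vitrified), and 358 and 144 (melatonin). The 8 oocyte markers were all present, with summed FPKM of 4536 to 6053 in the fresh and vitrified libraries and 3494 to 3668 in the melatonin libraries. Of 8 cumulus cell markers only Amhr2 reached a group mean of 1, and their sum was 5.04 to 10.6. The 7 trophectoderm markers summed to 25539 in CROC+K+M replicate 1, where all 7 were above 1 and Fabp3 alone was at 24404, against 5.30 to 23.2 in the other 6 libraries. That library therefore goes against its label. The group comparisons of the 5 Obox genes that use it, and their fitted slopes on Kdm4a, are also given without it. The correlations, ratio tests, library orders, most alike genes and list counts are not. Rn45s, which encodes precursor ribosomal RNA, was at 1183 and 1047 in the fresh libraries, at 2114, 266 and 237 in the vitrified ones, and at 224 and 175.4 with melatonin. Libraries above 500 are called high in Rn45s below: both fresh ones and CROC+K replicate 1.

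Obox RNA was abundant in these embryos. Obox5, the most abundant maternal member, ranked between the 20th and the 55th highest of all rows in every library. Its FPKM was 1646 and 2882 in the fresh group, 1437, 2349 and 3427 in the vitrified group, and 2446 and 2103 with melatonin, each in the order of the replicate numbers. The groups overlapped. The mean was 2264 ± 874 (SD, n = 2) in the fresh group, 2404 ± 996 (SD, n = 3) in the vitrified group and 2275 ± 243 (SD, n = 2) with melatonin.

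Obox1 came next, at FPKM of 628 and 737 (fresh), 611, 897 and 1143 (vitrified), and 895 and 625 (melatonin). Its group means were 683 ± 77.0 (SD, n = 2), 884 ± 266 (SD, n = 3) and 759.9 ± 191 (SD, n = 2). It varied least of the 5 genes, by 1.87-fold from the lowest to the highest library. Obox2 was at 242 and 282 (fresh), 240.3, 393 and 503 (vitrified), and 466 and 205 (melatonin), a 2.45-fold range. Its mean was 262 ± 28.1 (SD, n = 2) in the fresh group, 379 ± 132 (SD, n = 3) in the vitrified group and 336 ± 184 (SD, n = 2) with melatonin. The highest library for Obox1, Obox2 and Obox5 was CROC+K replicate 3. Obox7 was lower, at 85.8 and 80.9 (fresh), 62.7, 177 and 245 (vitrified), and 155 and 88.2 (melatonin).

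The order Obox5, Obox1, Obox2 held in 7 of 7 libraries, and FPKM is a level per transcript length, so the genes can be set beside each other. Obox5 stood 2.35- to 3.91-fold above Obox1, and Obox1 1.92- to 3.04-fold above Obox2. Obox1 and Obox2 are close copies. Of the 50-base words in GENCODE M21 transcripts of Obox1, 56.4% also occur in Obox2, and of those of Obox2 62.7% occur in Obox1. The division of fragments between these genes is therefore uncertain. Their summed FPKM was between 830.4 and 1646, and it is free of that division only so far as their transcript lengths are equal. For Obox5 17.1% of the words occur in another of the 6 Obox genes, and for Obox6 0% do. Transcripts of Obox pseudogenes hold 4.91% of the Obox5 words and 5.02% of the Obox6 words.

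Obox3, transcribed from the embryo's genome, had the widest spread of the 5. Its FPKM was 170.1 and 34.2 (fresh), 11.6, 279 and 392 (vitrified), and 128 and 84.1 (melatonin). The highest library exceeded the lowest by 33.7-fold, and both extremes lay in the same group, CROC+K. The mean was 102 ± 96.1 (SD, n = 2) in the fresh group, 228 ± 195 (SD, n = 3) in the vitrified group and 106 ± 31.1 (SD, n = 2) with melatonin, and these means lie closer together than 1 SD of the vitrified group. Of its 50-base words 18.7% occur in transcripts of Obox pseudogenes, so its level is uncertain where the counting split fragments between them.

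Obox6 was at FPKM of 551 and 237 (fresh), 199, 285 and 352 (vitrified), and 137 and 255 (melatonin). Its highest library was FOC+K replicate 1, and its lowest was the melatonin library rich in trophectoderm markers. The group means were 394 ± 222 (SD, n = 2), 279 ± 76.7 (SD, n = 3) and 196 ± 83.7 (SD, n = 2). Obox6 exceeded Obox3 in 6 of 7 libraries and Obox2 in 2 of 7. Obox2 and Obox6 thus are neighbours in the order of levels that do not differ beyond their spread, and so are Obox3 and Obox7, where Obox7 was higher in 4 of 7 libraries.

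**Figure D1:**
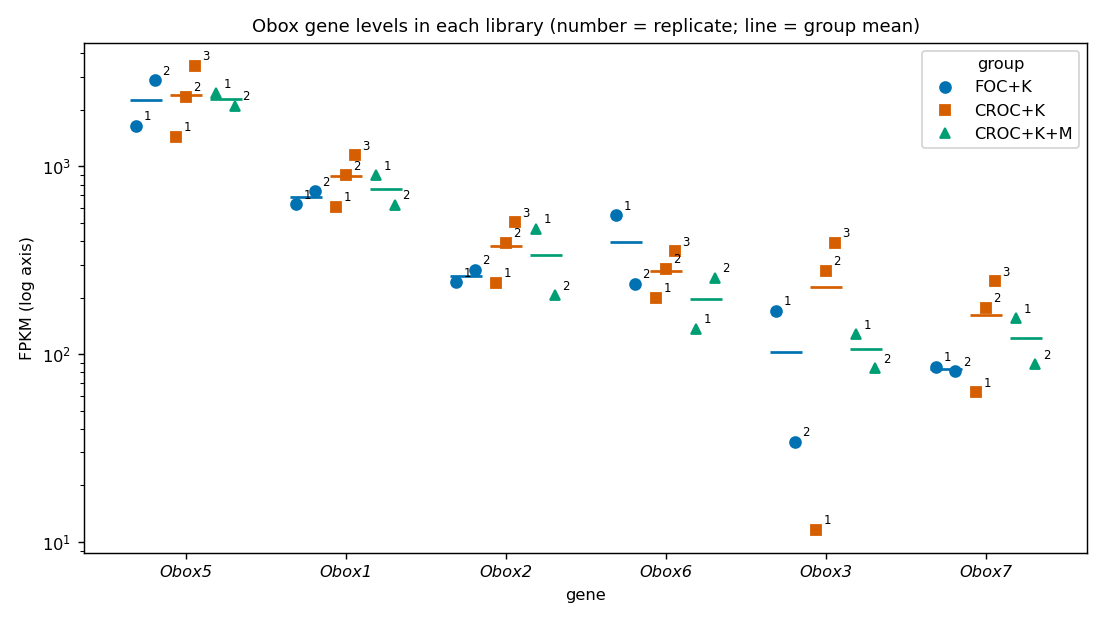
FPKM of the 6 Obox genes on a log axis, with 1 point per library, the replicate number beside it and a line at each group's arithmetic mean. Obox5 lies between 1437 and 3427 in all libraries, while Obox3 runs from 11.6 to 392 within the CROC+K group.

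The maternal genes dominated the family's RNA. Obox5 made up 50.8% to 69.1% of the summed FPKM of the 5 genes, Obox1 17.7% to 24.4% and Obox2 6.28% to 11.4%. Obox6 contributed 3.36% to 17.0%. Obox3 contributed 0.466% in CROC+K replicate 1 and 0.821% in FOC+K replicate 2, 2.57% and 3.15% in CROC+K+M replicates 2 and 1, and 5.25% to 6.74% in the other 3 libraries. These shares are taken within a library, so they do not depend on how libraries were scaled to each other.

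**Figure D2:**
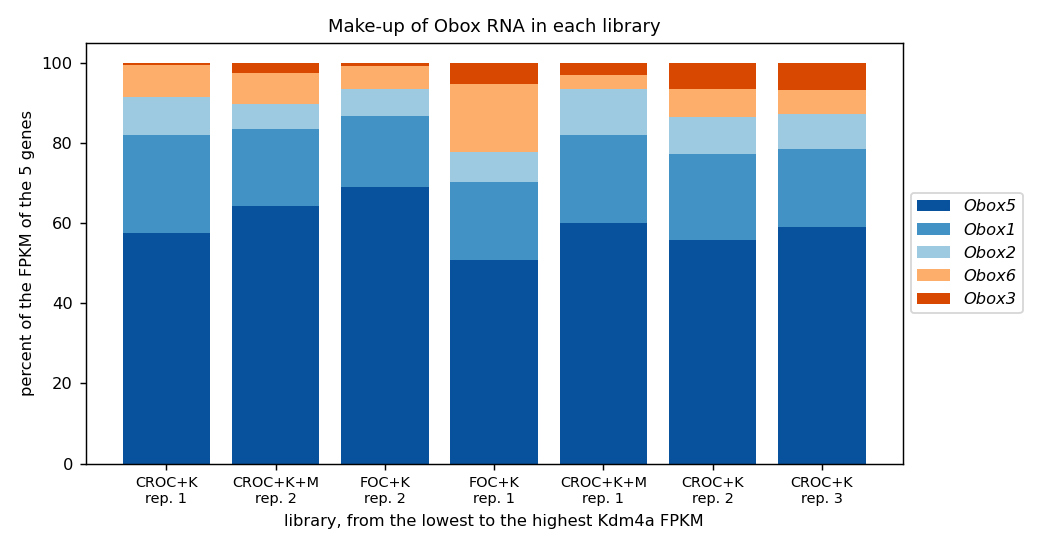
Share of each gene in the summed FPKM of Obox1, Obox2, Obox5, Obox3 and Obox6, with 1 bar per library in the order of Kdm4a FPKM. The Obox3 share is 0.466% in the leftmost library, which has the least Kdm4a RNA, and 6.74% in the rightmost, which has the most.

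The summed FPKM of Obox3 and Obox6 against that of Obox1, Obox2 and Obox5 gave a log2 ratio between -3.85 and -1.80. It was -1.80 and -3.85 (fresh), -3.44, -2.69 and -2.77 (vitrified), and -3.85 and -3.11 (melatonin). The pair of FOC+K libraries spanned nearly the whole range, so the ratio did not separate the groups. With Obox3 as the only zygotic gene the log2 ratio ranged more widely, from -7.62 in CROC+K replicate 1 to -3.69 in CROC+K replicate 3.

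The annotated promoters are shown because the maternal Obox1 and Obox5 and the zygotic Obox3 carry closely alike sequence before their start sites. RefSeq's table for GRCm38.p6 holds promoters of Obox1, Obox2, Obox3, Obox5 and Obox7. That build differs from the one named for the expression table, which gives no positions. The last 150 bases before the start site are printed for 3 genes, with the stretch that aligns with Obox3 in capitals (for Obox3, the stretch that aligns with Obox5). They lie at chr7:15547107-15547256 (plus strand) for Obox1, chr7:15750220-15750369 (plus strand) for Obox5 and chr7:15639778-15639927 (minus strand) for Obox3.
Obox1: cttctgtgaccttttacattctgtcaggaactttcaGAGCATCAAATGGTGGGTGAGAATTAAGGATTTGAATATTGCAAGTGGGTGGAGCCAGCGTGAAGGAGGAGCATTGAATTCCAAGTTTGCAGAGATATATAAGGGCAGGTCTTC
Obox5: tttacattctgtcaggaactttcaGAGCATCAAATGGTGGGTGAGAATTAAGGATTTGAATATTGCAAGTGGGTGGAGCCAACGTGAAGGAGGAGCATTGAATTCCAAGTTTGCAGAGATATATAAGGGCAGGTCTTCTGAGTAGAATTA
Obox3: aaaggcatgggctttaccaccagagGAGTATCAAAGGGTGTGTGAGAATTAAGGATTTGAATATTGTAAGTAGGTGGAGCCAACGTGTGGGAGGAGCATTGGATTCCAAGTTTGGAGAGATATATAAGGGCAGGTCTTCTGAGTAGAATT

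In windows of 300 bases that include the first 50 transcribed bases, Obox3 and Obox5 aligned over 175 bases without a gap, of which 162 (92.6%) were identical. Obox3 and Obox1 aligned over 164 bases with 153 (93.3%) identical, and Obox1 and Obox5 over 285 columns with 273 (95.8%) identical. Over the 250 bases before the start site, which hold part of the aligned stretch, 69.6% of Obox3 bases matched Obox5. The share was 91.2% between Obox1 and Obox5. These shares depend on where the starts are annotated. Obox2 matched Obox5 at 53.6% and Obox1 at 61.2%, although 203 bases of its window were identical to Obox1. All 3 printed promoters hold the letters TATATAA, a form of the TATA box, at 19 to 31 bases before the annotated start. The 250 bases before the starts of Obox2 and Obox7 do not hold them, but these windows follow the annotated starts. Bases -250 to -48 of Obox1 were identical to -153 to 49 of Obox2. The Obox1 letters, at -19, thus correspond to bases past the Obox2 window. Bases -235 to 32 of Obox1 aligned with -221 to 46 of Obox7, which places the letters across its annotated start. Their absence from the windows does not show that either gene lacks them. On either strand (TATATAA or TTATATA), 3.04% of 32851 promoters of the same length hold the letters. A match of letters is a description and not a site.

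The first comparison asks what differs in embryos from vitrified rather than fresh oocytes. Vitrified against fresh, the log2 fold change was 0.33 ± 0.34 (SE) for Obox1, 0.47 ± 0.44 for Obox2 and 0.05 ± 0.43 for Obox5. It was 0.52 ± 1.41 for Obox3 and -0.41 ± 0.46 for Obox6. Limma's adjusted p was 0.9996 for all 5, so 0 of 5 genes passed the threshold of 0.05, as did 0 (0%) of all 12275 genes. At an unadjusted p under 0.05 there were 0 of 5 Obox genes, and 140 genes higher (1.14%) and 129 lower (1.05%) among all tested. The libraries of the groups overlapped for all 5, where 9.66% of all genes were higher and 9.47% lower without overlap. The 95% interval of the Obox3 difference, from -2.76 to 3.81, leaves room for large differences in either direction. The directions of Obox1 and Obox5 turned with equal FPKM sums and after quantile normalization, and that of Obox3 turned without FOC+K replicate 2, CROC+K replicate 2 or CROC+K replicate 3.

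Melatonin was compared with its absence in embryos from vitrified oocytes. The log2 fold change, melatonin against vitrified, was -0.19 ± 0.34 (SE) for Obox1, -0.23 ± 0.44 for Obox2 and 0.0044 ± 0.43 for Obox5. It was -0.09 ± 1.41 for Obox3 and -0.54 ± 0.46 for Obox6. Adjusted p-values in limma lay between 0.697 and 0.998, and 0 of 5 genes passed, against 0 (0%) of 12275. At an unadjusted p under 0.05 there were 0 of 5, and among all genes 821 higher (6.69%) and 460 lower (3.75%). All 5 overlapped between the groups, where 12.3% of all genes were higher and 11.2% lower without overlap. With the trophectoderm-rich replicate 1 left out, the values were -0.45 for Obox1, -0.82 for Obox2, -0.10 for Obox5, -0.39 for Obox3 and -0.09 for Obox6, and 0 of 5 passed.

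Embryos with melatonin and vitrified oocytes were also set against those from fresh oocytes, a comparison that shares its libraries with the other 2. Melatonin against fresh, Obox6 had a log2 fold change of -0.95 ± 0.51 (SE), with an unadjusted p of 0.0991 and an adjusted p of 0.764 in limma. With CROC+K+M replicate 1 left out it was -0.50, and the other genes were at -0.12 (Obox1), -0.34 (Obox2), -0.05 (Obox5) and 0.13 (Obox3). The Obox6 value was -0.34 without FOC+K replicate 1, -1.56 without FOC+K replicate 2 and -1.40 without CROC+K+M replicate 2. It was -1.54 with equal FPKM sums, where the median of all genes was -0.44, -1.53 after quantile normalization and -1.62 with the Rn45s split as a term. That split coincides with these groups, so its term was set only by CROC+K replicate 1 against the other vitrified libraries. The direction of Obox6 held in all 14 alternatives, and it passed the threshold in none. Several of these could not turn it. The value stayed at -0.95 when a CROC+K library was left out and without the filter on low values. It also stayed there with the replicate block and with only the groups compared. The unadjusted p in limma was 0.0161 with equal FPKM sums and 0.0152 after quantile normalization (adjusted p = 0.432 and 0.587). With all libraries, the maternal genes were at 0.14 ± 0.37 (Obox1), 0.24 ± 0.48 (Obox2) and 0.06 ± 0.47 (Obox5), and Obox3 was at 0.43 ± 1.55, and all 4 turned negative with equal FPKM sums. None of the 5 passed the threshold, against 0 (0%) of all genes, and at an unadjusted p under 0.05 there were 0 of 5, 547 genes higher (4.46%) and 246 lower (2%). Obox7, outside the rule, was the single family member without overlap, higher with melatonin as were 21.3% of all genes, while 19.7% were lower without overlap. Its log2 fold change was 0.49 ± 0.61 (SE; adjusted p = 0.897). In none of the 3 comparisons is a p above the threshold a sign that levels were equal.

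**Figure D3:**
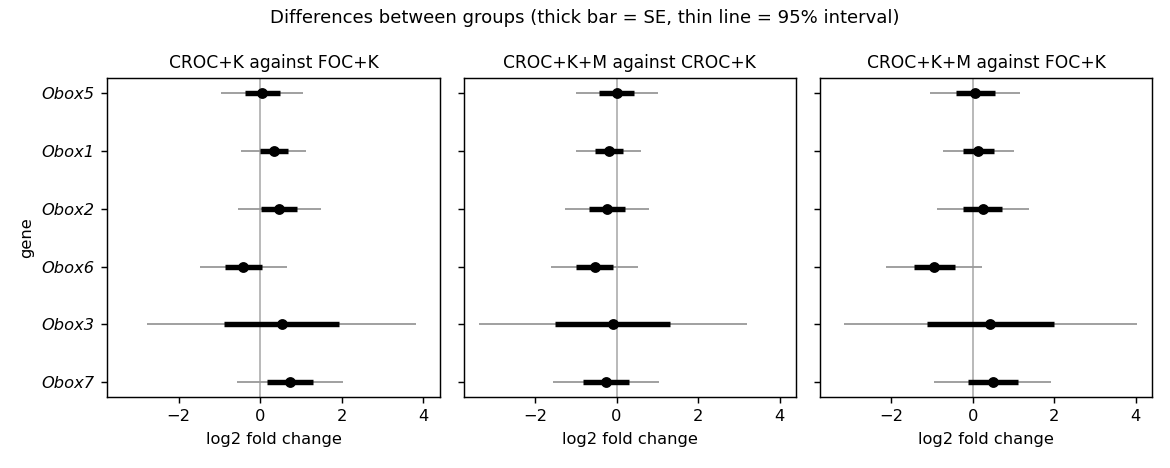
Log2 fold changes of the 6 Obox genes on the log2(FPKM + 1) scale in the 3 comparisons, with the SE as a thick bar and the 95% interval as a thin line. Every interval includes 0, and those of Obox3 are the widest, reaching from -2.76 to 3.81 for CROC+K against FOC+K.

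The Obox genes were also set against Kdm4a over all 7 libraries, since its RNA varied within every group. Its FPKM was 2014 and 816 (fresh), 497, 4051 and 4949 (vitrified), and 2797 and 689 (melatonin). Obox3 rose with Kdm4a: in a limma fit over all 7 libraries its log2 level was higher by 1.20 ± 0.20 (SE) per doubling of Kdm4a, with a 95% interval from 0.75 to 1.65 and an adjusted p of 0.0409. In this fit 84 of 12274 genes (0.684%) passed, 40 of them with a positive slope (0.326%) and 44 with a negative one (0.358%), and Obox3 was the 61st by p. Of the 5 Obox genes 1 passed. The slope was positive in all 15 alternatives, between 0.94 and 1.42, and its adjusted p ranged from 0.00669 to 0.284, under the threshold in 4 of them. These 4 include FPKM rescaled to equal sums without the Kdm4a row, an alternative added after the data were seen. Its slope of 1.23 (adjusted p = 0.0486 in limma) nearly repeats that with equal FPKM sums (1.23, adjusted p = 0.0491). The call of Obox3 was lost without either fresh library or any vitrified library.

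The maternal genes had smaller slopes that did not pass. They were 0.22 ± 0.09 (SE) for Obox1, 0.33 ± 0.10 for Obox2 and 0.18 ± 0.13 for Obox5, with adjusted p of 0.309, 0.183 and 0.558 in limma. Obox6, the other zygotic gene, was at 0.12 ± 0.17 with an adjusted p of 0.778. Obox7 was at 0.50 ± 0.10 with an adjusted p of 0.0680. At an unadjusted p under 0.05 the slopes of Obox1, Obox2 and Obox3 were positive, as were those of 6.49% of all genes, while 9.01% were negative. Without the trophectoderm-rich CROC+K+M replicate 1 the slope of Obox6 was 0.22 ± 0.12 (SE). In the same fit those of Obox1, Obox2 and Obox5 were 0.21, 0.30 and 0.18.

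Scaling moved these smaller slopes. With equal FPKM sums the median slope of all genes fell to -0.11, and the slopes were 0.10 for Obox1, 0.21 for Obox2, 0.06 for Obox5, 0.10 for Obox6 and 1.23 for Obox3. The FPKM sum itself was between 552356 and 585039 in the 3 libraries high in Rn45s and between 726297 and 1017995 in the other 4, so the libraries high in Kdm4a also tended to have larger sums; its part in the slopes of the maternal genes was not tested.

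**Figure D4:**
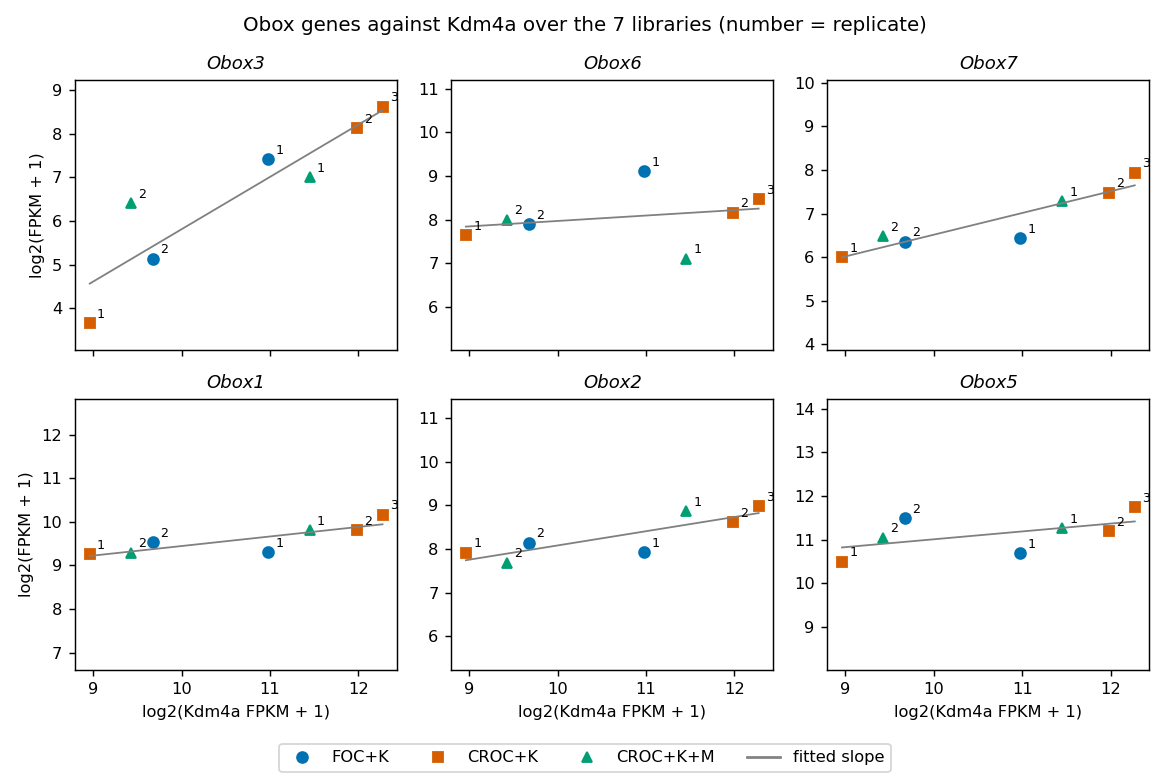
Level of each Obox gene against Kdm4a, both as log2(FPKM + 1), with 1 point per library, the replicate number beside it and the fitted slope as a line; every panel spans the same number of log2 units. Obox3 has the steepest line, at 1.20 per doubling of Kdm4a, and Obox6 the flattest, at 0.12.

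Single relations were measured over the 7 libraries for 6 genes and 2 ratios, 8 in all, with exact two-sided permutation tests that are not adjusted. Obox3 had Pearson's r = 0.91 with Kdm4a (exact permutation p = 0.00238) and Spearman's rho = 0.93 (exact permutation p = 0.00675). Leaving out CROC+K replicate 1 and CROC+K+M replicate 2, the libraries farthest from the median of Kdm4a, gave r = 0.96. The trophectoderm-rich CROC+K+M replicate 1 was among the libraries kept. For Obox1 r was 0.84 (exact permutation p = 0.0276) and rho 0.96 (exact permutation p = 0.00278), with r = 0.71 after leaving out those libraries. For Obox2 r was 0.84 (exact permutation p = 0.0363) and rho 0.89 (exact permutation p = 0.0123), with r = 0.73 afterwards. For Obox7 r was 0.92 (exact permutation p = 0.00675) and rho 0.89 (exact permutation p = 0.0123), with r = 0.90 afterwards.

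Obox5 and Obox6 showed weaker relations. Obox5 had r = 0.54 (exact permutation p = 0.215) and rho = 0.68 (exact permutation p = 0.110), and r fell to 0.15 without those libraries. Obox6 had r = 0.26 (exact permutation p = 0.580) and rho = 0.43 (exact permutation p = 0.354), with r = 0.09 afterwards.

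Whether Obox3 varied with Kdm4a relative to the maternal RNA was tested on the log2 ratio of Obox3 to Obox5. The ratio is free of library scaling, but the Kdm4a level it was set against is not. Obox3 ranged 33.7-fold over the libraries and Obox5 2.39-fold, so the ratio is largely set by Obox3. The ratio had r = 0.87 with Kdm4a (exact permutation p = 0.0133) and rho = 0.89 (exact permutation p = 0.0123), with r = 0.89 after leaving out those libraries. Obox5 exceeded Obox3 by 123-fold in CROC+K replicate 1 and by 8.73-fold in CROC+K replicate 3. The log2 ratio of Obox6 to Obox5 had r = -0.09 (exact permutation p = 0.863) and rho = -0.29 (exact permutation p = 0.556), with r = 0.0061 afterwards.

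The order of libraries was also read inside groups and inside the split by Rn45s, where too few libraries remain for a correlation. Obox3 followed the order of Kdm4a in 5 of 5 pairs of libraries of the same group. It did so in 3 of 3 pairs among the 3 libraries high in Rn45s and in 6 of 6 pairs among the other 4. Obox7 gave the same counts. Obox1, Obox2 and Obox5 followed it in 4 of 5 pairs within groups, the exception being the fresh group, where replicate 2 had less Kdm4a and more of all 3 maternal transcripts. Obox6 followed it in 4 of 5, the exception being the melatonin group, where it was lower in the trophectoderm-rich replicate 1. Such pairs were not counted for all genes, so no background share stands beside these counts. Pairs that share a library are not independent, and 3 of the 5 pairs within groups come from the vitrified group. With the Rn45s split as a term, an alternative added after the data were seen, the Obox3 slope was 1.05 ± 0.24 (SE) and its adjusted p 0.258 in limma. With the group as a term it was 1.26 ± 0.21 with an adjusted p of 0.107. Without CROC+K+M replicate 1 it was 1.25 ± 0.18 with an adjusted p of 0.00669, and in that fit 783 of all genes passed.

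The genes whose pattern was most like each Obox gene were taken by Pearson's r of log2(FPKM + 1) over the same 7 libraries, among 11120 tested genes with proper names, as a description. For Obox3 they were Pramef25 (r = 0.996), Gyk (r = 0.989) and Zscan4a (r = 0.989). Zscan4a encodes a zinc finger protein typical of the 2-cell stage; its FPKM was 31.9 and 7.61 (fresh), 1.70, 58.8 and 89.9 (vitrified), and 18.7 and 12.7 (melatonin). For Obox6 they were Trabd2b (r = 0.988), Cracr2a (r = 0.978) and G2e3 (r = 0.969), all highest in FOC+K replicate 1 and lowest in CROC+K+M replicate 1. For Obox1 they were Pigf (r = 0.982), Rora (r = 0.977) and Epha10 (r = 0.970), and for Obox2 Stx7 (r = 0.976), Rasl2-9 (r = 0.974) and Cntnap2 (r = 0.970). For Obox5 they were Smkr-ps (r = 0.980), Rell1 (r = 0.958) and Slc3a1 (r = 0.952), and for Obox7 Cbx1 (r = 0.986), Epha10 (r = 0.986) and Slc4a8 (r = 0.975). Among themselves Obox1, Obox2 and Obox7 had r between 0.90 and 0.96, while Obox6 had r between -0.21 and 0.44 with the others. All these relations share the same 7 libraries and their scaling.

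Other genes of the same setting were counted from lists. Of 36 tested 2-cell stage genes 36 had a positive slope on Kdm4a (median 0.67), where 50.6% of all genes did (median 0.0037). Of these 36, 16 passed the threshold, all positive, where 0.326% of all genes passed with a positive slope. They include Usp17la, a deubiquitinase gene of a multicopy family, at 1.45 ± 0.11 (SE) per doubling (adjusted p = 0.00212 in limma). Its FPKM was 0.0844 in CROC+K replicate 1 and 33.5 in CROC+K replicate 3. Among 41 factors of genome activation 2 passed, both positive and both also on the 2-cell list: Zscan4c at 1.38 ± 0.11 (adjusted p = 0.00225) and Zscan4d at 1.77 ± 0.17 (adjusted p = 0.00580). Gm2022, the other gene of smallest p, was at 1.55 ± 0.11 (adjusted p = 0.00212). That the 2-cell list follows Kdm4a was known from these data when it was chosen, so its count is no independent support.

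Of 61 tested maternal oocyte transcripts 46 had a positive slope (75.4%, median 0.12), where 50.6% of all genes did, and 0 passed, where 0.684% of all genes passed, with Gm15698 at 0.50 ± 0.09 (SE, adjusted p = 0.0581 in limma) and Rfpl4b at 0.91 ± 0.20 (adjusted p = 0.0822). Of 28 tested homeobox genes of oocytes and embryos 15 had a positive slope (53.6%, median 0.01), near the share of all genes. Of these 28 genes 0 passed. Crx, a homeobox gene related to Otx, was at -0.48 ± 0.13 (SE, adjusted p = 0.141 in limma) and Pbx3 at -0.36 ± 0.10 (adjusted p = 0.148). Both genes were low, with FPKM of 0 to 2.78 for Crx and 0.907 to 3.40 for Pbx3.

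In the group comparisons 0 genes of any list passed. Vitrified against fresh, the median log2 fold change was 0.50 for the 2-cell genes (26 of 36 higher), 0.12 for the maternal transcripts (42 of 61), -0.19 for the activation factors (14 of 41) and -0.0093 for the homeobox genes (13 of 28), beside -0.03 for all genes (47.3% higher). Melatonin against vitrified, the medians were -0.64 (5 of 36 higher), -0.31 (11 of 61), -0.06 (18 of 41) and -0.09 (12 of 28) in the same order, beside 0.06 for all genes (54.1% higher). Melatonin against fresh, they were -0.07 (15 of 36), -0.21 (21 of 61), -0.11 (15 of 41) and -0.14 (9 of 28), beside 0.04 (52.9% higher). The 5 Obox genes had medians of 0.33, -0.19 and 0.14, with 4, 1 and 4 of 5 higher.

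Genes of smallest unadjusted p in each list are given by log2 fold change and SE. Vitrified against fresh (limma, adjusted p = 0.9996 for each), the homeobox genes Pknox1 and Pou6f1 were at -0.98 ± 0.46 and -0.88 ± 0.53. Both genes were low, with FPKM of 0 to 2.19 for Pknox1 and 0.566 to 4.12 for Pou6f1 over all libraries. The transcription factors Zfx and Myc were at -1.19 ± 0.40 and -0.75 ± 0.32. The 2-cell genes Tdpoz2 and Gm5662 were at -1.79 ± 0.66 and 1.63 ± 1.02, and the maternal Fbxw24 and Npm2 at 1.03 ± 0.47 and 0.49 ± 0.24. Npm2 encodes the oocyte's nucleoplasmin, a histone chaperone.

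Melatonin against vitrified (limma, adjusted p between 0.409 and 0.463), the homeobox gene Meis2 was at -0.73 ± 0.29. Tead4, which encodes a factor of the trophectoderm lineage, was at 1.59 ± 0.53. Its FPKM was low, at 2.04, 1.98 and 0 in the vitrified libraries and 5.28 and 5.29 in the melatonin libraries. The 2-cell genes Tdpoz4 and Pramel7 were at -2.01 ± 0.52 and 1.14 ± 0.46. The FPKM of Pramel7 was 27.9, 54.1 and 50.4 in the vitrified libraries, 146.8 in the trophectoderm-rich CROC+K+M replicate 1 and 61.4 in replicate 2, so most of its difference lies in the library that goes against its label. The zona pellucida gene Zp2 was at -1.27 ± 0.28 and Oas1e at -0.98 ± 0.28.

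Melatonin against fresh (limma, adjusted p between 0.737 and 0.757), Pou5f1, the gene of Oct4, was at -0.80 ± 0.35 and Sebox, an oocyte homeobox gene, at -0.82 ± 0.39. Nfyb, a subunit gene of the CCAAT-binding factor, was at 0.79 ± 0.35. Tdpoz4 and Tdpoz2 were at -2.16 ± 0.57 and -1.80 ± 0.72, and Zp2 and Zbed3 at -1.08 ± 0.30 and -1.02 ± 0.33. The oocyte markers, as a sum, were also lowest in the melatonin libraries, and their part in these values was not tested.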

How the data were processed

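RNA of 7 pools of SCNT embryos was measured. The authors deposited FPKM values, 1 per gene and library. Cufflinks 2.2.1, Cuffnorm, STAR 2.5.2b, R 3.3.2 and the mm9 build are named in the submitters' processing notes. The annotation and any scaling between libraries are not stated there. Steps in the low values show relative depth only (the commonest ratio to FOC+K replicate 1 was 0.646 to 0.940), so no counting error is given.

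FPKM were used as log2(FPKM + 1), which understates changes of low genes. Small RNA rows (1269) were left out, and 12275 genes with an FPKM of at least 1 in 2 or more libraries were tested with limma 3.58.1 (intensity trend, R 4.3.3). All 7 libraries entered 1 fit with the group as the only term, and the slope fit had log2(Kdm4a + 1) as its term and left out the Kdm4a row. P-values were two-sided and adjusted by the Benjamini-Hochberg method over all genes tested. Correlations used exact permutations of the 7 libraries (5040) with Python 3.11.15. The scripts were tested on simulated data. Promoters are from RefSeq (5 of 6 Obox genes matched), aligned with biopython 1.88.

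The genes, lists and rules were chosen with earlier results of these data known. Named genes are the Obox rows, the 2 genes of smallest unadjusted p per list and comparison and the 3 genes most like each Obox gene. Some genes that this rule names are not reported here. No library pair held identical values. Replicates are separate libraries, 2 to 3 per protocol and called biological by the labels. Equal replicate numbers are not said to mark a shared batch.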

Additional observations from a re-analysis of the deposited data

How the results depend on the processing

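In the 3 group comparisons 0 of the 5 Obox genes passed under any alternative run. Directions were unstable: 16 of 70 values changed sign for vitrified against fresh, 15 of 70 for melatonin against vitrified and 16 of 70 for melatonin against fresh, and the cause was not tested. Each 70 includes values that could not change. Examples are fits without a library of the group not compared, without the filter on low values or with only the groups compared. For vitrified against fresh, equal FPKM sums gave -0.012 for Obox1 and -0.29 for Obox5, quantile normalization -0.12 and -0.33, and the Rn45s split as a term -0.16 for Obox1, -0.12 for Obox2, -0.60 for Obox5 and -2.62 for Obox3. For melatonin against vitrified, Obox5 was at -0.25 with equal FPKM sums, -0.23 after quantile normalization and -0.32 with the Rn45s split. For melatonin against fresh, equal sums gave -0.46 for Obox1, -0.35 for Obox2, -0.54 for Obox5 and -0.16 for Obox3, quantile normalization -0.66, -0.42 and -0.56 for Obox1, Obox2 and Obox5, and the Rn45s split -0.59, -0.64, -0.92 and -4.28 for Obox1, Obox2, Obox5 and Obox3. Equal sums moved the median of all genes to -0.30, -0.14 and -0.44 in these comparisons. Only the CROC+K group held libraries on both sides of the Rn45s split. The term for the split was thus set by CROC+K replicate 1 against the other vitrified libraries. For melatonin against fresh the split coincides with the groups, so its values carry that difference over and cannot separate split from group.

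Leaving out each library in turn gave, for vitrified against fresh, 0.12 to 0.57 for Obox1, 0.23 to 0.77 for Obox2, -0.35 to 0.46 for Obox5, -0.62 to 2.10 for Obox3 and -1.02 to 0.19 for Obox6. For melatonin against vitrified it gave -0.45 to 0.065 for Obox1, -0.82 to 0.36 for Obox2, -0.32 to 0.30 for Obox5, -1.66 to 0.82 for Obox3 and -0.99 to -0.09 for Obox6. For melatonin against fresh it gave -0.12 to 0.39 for Obox1, -0.34 to 0.83 for Obox2, -0.35 to 0.46 for Obox5, -0.71 to 1.57 for Obox3 and -1.56 to -0.34 for Obox6. A library left alone in its group is assumed to vary like the others.

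The number of Obox genes called in the slope on Kdm4a was 1, and 0 with a pseudocount of 0.1 (adjusted p of Obox3 0.0506), without the filter on low values (0.0998), after quantile normalization (0.104), with the group (0.107) or the Rn45s split (0.258) as a term, or with the replicate block (0.284). Leaving out 1 library gave 0 to 1: Obox3 was lost without either FOC+K library or any CROC+K library (adjusted p between 0.0857 and 0.216) and kept without either CROC+K+M library. The slopes of the 5 genes kept their direction in all 75 alternatives, which include settings added after the data were seen. Over all genes the count called was 84, and between 0 and 783 under the alternatives. In the group comparisons it was 0 under every alternative except without CROC+K+M replicate 2, where 658 genes passed for melatonin against vitrified and 546 for melatonin against fresh, with the trophectoderm-rich library alone in its group.

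In the fit with the replicate block, which leaves CROC+K replicate 3 no partner, the direction also changed in vitrified against fresh for Obox5 (-0.25) and Obox3 (-0.38), and in melatonin against vitrified for Obox1 (0.015), Obox2 (0.010) and Obox3 (0.82). Deviations from the group means had r between -0.46 and 0.03 in same-numbered libraries. In a group of 2 libraries these deviations mirror each other, so this could not decide whether the numbers pair the samples. With the replicate block no group count of calls moved.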
